A study of Homo sapiens with 6 samples.

Results

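MYC, its partner MAX, the related factor MYCL, 5 antagonists that also pair with MAX (MXD1, MXD3, MXD4, MXI1 and MNT) and 2 long noncoding RNAs transcribed on either side of MYC (CCAT1 and PVT1) were followed in HCC827 cells treated with the EGFR inhibitor erlotinib. The 10 members were taken by gene symbol from a table of 28395 genes, and all 10 passed the filter on low values, a signal that averages 10 or more over the 6 libraries. They were chosen with this comparison of erlotinib and DMSO in view, CCAT1 because it was among the largest falls, so their values are given as a description and without p-values.

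HCC827 is an established human lung adenocarcinoma line whose growth depends on a mutant, constantly active EGFR. Cells were grown in RPMI 1640 medium with serum to subconfluence and then received either the vehicle DMSO (3 libraries, numbered 1 to 3) or 1 μM erlotinib (3 libraries, numbered 4 to 6) for 24 h. RNA was enriched for polyadenylated transcripts and sequenced in bulk, and the reads assigned to genes numbered 20858083, 24641819 and 21172884 with DMSO and 21944007, 20760204 and 21678395 with erlotinib. All libraries come from 1 cell line, and the labels do not say whether they came from separate cultures, so the spread between them may be technical. Values are signal, the reads of a gene divided by the size factor of its library. In bulk RNA, fewer cells that express a gene and less RNA per cell cannot be told apart.

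The MYC protein binds DNA as a pair with MAX, most tightly at the E-box sequence CACGTG, and activates genes of ribosome production, nucleotide synthesis and metabolism. The MXD proteins, MXI1 and MNT compete for MAX, bind the same sequence and bring SIN3 and histone deacetylase corepressors to it. MYC RNA and protein turn over quickly and respond to growth factor signalling through ERK, while several MXD genes are known to rise as cells stop dividing or differentiate. CCAT1 is made from an enhancer-rich stretch upstream of MYC, and PVT1 is the large noncoding gene downstream of it, often amplified together with MYC in cancer.

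The libraries carried the epithelial markers of their label. EPCAM averaged 9852 in DMSO and 9485 with erlotinib, and KRT7, the most abundant of the 10 markers, 123686 and 79897. The lung lineage factor NKX2-1 had 3002 and 8644, and NAPSA, an aspartic protease of the same lineage, had 986 and 3733, whereas the surfactant gene SFTPB was near the detection floor, with 8.23 and 10.5. Of 9 markers tested 4 fell and 3 rose, 44.4% and 33.3% beside 35.4% and 35.3% of all genes tested. MUC1, a cell surface mucin, rose from 420 to 2961 and KRT18 fell from 18755 to 7876 (adjusted p = 3.3e-16 and 1.6e-12, limma with Benjamini-Hochberg adjustment). The markers summed to 291149, 258890 and 281635 in DMSO and to 201625, 205235 and 206993 with erlotinib. Of 11 markers of leukocytes, endothelium and fibroblasts, 7 averaged under 10, among them CD3E, with 1.81 in DMSO and 1.54 with erlotinib. DCN was at 0 in all DMSO libraries and at 2.77, 0 and 1.87 with erlotinib. The most abundant of the 11 was CD68, with 2898 and 3394. COL1A1 rose from 77.7 to 216 and VWF from 3.94 to 27.4 (adjusted p = 6.8e-07 and 0.00066, limma with Benjamini-Hochberg adjustment). Their sum was 2889, 2880 and 3285 in DMSO and 3533, 3793 and 3705 with erlotinib, and the part of such genes in the results was not tested.

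Erlotinib moved the members apart. With a threshold of 0.05 on the adjusted p-value in limma, CCAT1, PVT1 and MYC were lower, MYCL, MXD4, MXI1 and MNT were higher, and MAX, MXD1 and MXD3 were neither. Of the 14215 genes tested, 35.4% were lower and 35.3% higher, 70.7% together, and since the members were chosen from this contrast nothing is read from their counts. The groups did not overlap for the same 7 members, against 73.6% of all genes tested. The median log2 fold change of all genes tested was 0.02, and the middle 50% lay between -0.53 and 0.68.

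MYC itself (Entrez gene 4609, chromosome 8, 127735434 to 127742951, GRCh38) gave 13274, 12790 and 14199 in DMSO and 10868, 10752 and 11264 with erlotinib, as signal. Every erlotinib library lay below every DMSO library, but the gap was small beside the level, which ranked 172 among the 14215 genes tested. The mean went from 13421 ± 716 to 10961 ± 268 (SD, n = 3 each), 0.817 of the DMSO level. This is a log2 fold change of -0.29 (standard error 0.06, 95% interval -0.42 to -0.16). When libraries were scaled to their total counts, it was -0.11 and no longer past the threshold.

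CCAT1 (Entrez gene 100507056, chromosome 8, 127207382 to 127219268) was nearly lost. Its signal was 1073, 1243 and 1114 in DMSO and 37.8, 23.8 and 34.6 with erlotinib. The 3 erlotinib values rest on 41, 24 and 37 reads, and none came near the DMSO range. The mean went from 1143 ± 88.4 to 32.1 ± 7.38 (SD, n = 3 each), or 0.0281 of the DMSO level, and the log2 fold change was -5.14 (standard error 0.17, 95% interval -5.49 to -4.78). Only 1 of the 14215 genes tested, STC1, had a lower value. Over the alternative settings the log2 fold change of CCAT1 stayed between -5.26 and -4.79.

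PVT1 (Entrez gene 5820, chromosome 8, 127794524 to 128101256) changed in the same direction and by less. Its signal was 635, 621 and 641 in DMSO and 350, 381 and 389 with erlotinib. The replicates of both groups were tight and did not overlap, with means of 632.6 ± 10.2 and 373 ± 20.9 (SD, n = 3 each). This corresponds to a log2 fold change of -0.76 (standard error 0.10, 95% interval -0.98 to -0.54). PVT1 hosts several microRNA genes and overlaps TMEM75, and since the strand counted is not stated, reads in such overlaps cannot be assigned. MIR1204 had a mean signal of 18.1 and 11.7, TMEM75 one of 14.9 and 3.10, and MIR1205, MIR1206 and MIR1207 stayed under 1.

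The balance of the noncoding RNAs against MYC can also be read inside each library, where the size factor cancels. CCAT1 signal was 8.08%, 9.72% and 7.85% of MYC signal in the DMSO libraries and 0.348%, 0.221% and 0.307% in the erlotinib libraries. PVT1 signal averaged 4.72% ± 0.181 of MYC signal in the DMSO group and 3.41% ± 0.169 in the erlotinib group (SD, n = 3 each). CCAT1 thus went from 181% ± 16.7 to 8.65% ± 2.30 of PVT1 signal (SD, n = 3 each). Both noncoding RNAs were lower relative to MYC in every erlotinib library than in any DMSO library. These are ratios of signal, not of molecules, because the transcripts differ in length.

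MYCL (Entrez gene 4610, chromosome 1, 39895428 to 39901917), a MYC family member that pairs with MAX in the same way and is amplified in some small cell lung cancers, moved against MYC. Its signal was 60.1, 40.9 and 43.9 in DMSO and 418, 355 and 419 with erlotinib. The lowest erlotinib library was far above the highest DMSO library. The mean rose 8.23-fold, from 48.3 ± 10.4 to 398 ± 36.6 (SD, n = 3 each), with a log2 fold change of 3.03 (standard error 0.19, 95% interval 2.65 to 3.42). MYCN, another member of the family, was listed at 0 in all 6 libraries.

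MAX (Entrez gene 4149, chromosome 14, 65006101 to 65102695), the shared partner, was not past the threshold. Its signal was 2265, 2502 and 2501 in DMSO and 2464, 2516 and 2399 with erlotinib. The groups overlapped, the means were 2423 ± 136 and 2460 ± 58.3 (SD, n = 3 each), and the log2 fold change was 0.02 with a 95% interval of -0.12 to 0.17. Scaled to the total count, it was 0.20 and past the threshold. MAX overlaps FNTB over 56550 bases and CHURC1-FNTB over 56555 bases, and reads in these stretches cannot be assigned without strand. FNTB averaged 53.5 in DMSO and 30.4 with erlotinib, and CHURC1-FNTB was listed at 0 in both groups.

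Among the antagonists, MXD4 (Entrez gene 10608, chromosome 4, 2247432 to 2262109) had the largest difference. Its signal was 855, 618 and 868 in DMSO and 4438, 4544 and 4503 with erlotinib. DMSO library 2 was the low one of its group, and the erlotinib libraries were within a narrow range far above. The mean went from 780 ± 141 to 4495 ± 53.6 (SD, n = 3 each), a 5.76-fold difference with a log2 fold change of 2.54 (standard error 0.10, 95% interval 2.33 to 2.75).

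MXI1 (Entrez gene 4601, chromosome 10, 110207605 to 110287365), which recruits SIN3 like the MXD proteins, had a signal of 681, 730 and 609 in DMSO and 1825, 1988 and 1843 with erlotinib. The means of 673 ± 60.8 and 1885 ± 89.1 (SD, n = 3 each) differed 2.80-fold, a log2 fold change of 1.49 (standard error 0.09). The groups were well apart. MNT (Entrez gene 4335, chromosome 17, 2384073 to 2401060), the antagonist that is present in most dividing cells alongside MYC, had 1334, 1250 and 1305 in DMSO and 2952, 2891 and 2971 with erlotinib. Its means of 1296 ± 42.7 and 2938 ± 42.0 (SD, n = 3 each) differed 2.27-fold, a log2 fold change of 1.18 (standard error 0.07). All MNT libraries with erlotinib were thus above all with DMSO, with little spread in either group.

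The other 2 antagonists were not past the threshold. MXD1 (Entrez gene 4084, chromosome 2, 69915109 to 69942945), the founding MXD gene, had a signal of 605, 708 and 623 in DMSO and 707, 764 and 643 with erlotinib. Its groups overlapped, and its log2 fold change of 0.13 had a 95% interval of -0.08 to 0.34. MXD3 (Entrez gene 83463, chromosome 5, 177305499 to 177312752), unlike its relatives expressed mainly in proliferating cells, had 126, 122 and 134 in DMSO and 180, 128 and 159 with erlotinib. Erlotinib library 5 fell inside the DMSO range, and the log2 fold change of 0.28 had a 95% interval of -0.09 to 0.65. MXD3 overlaps PRELID1 over 1451 bases, a gene that averaged 1368 in DMSO and 547 with erlotinib, and reads in this stretch cannot be assigned without strand. Scaled to the total count, MXD1 and MXD3 were higher and past the threshold, with log2 fold changes of 0.31 and 0.45.

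**Figure D1:**
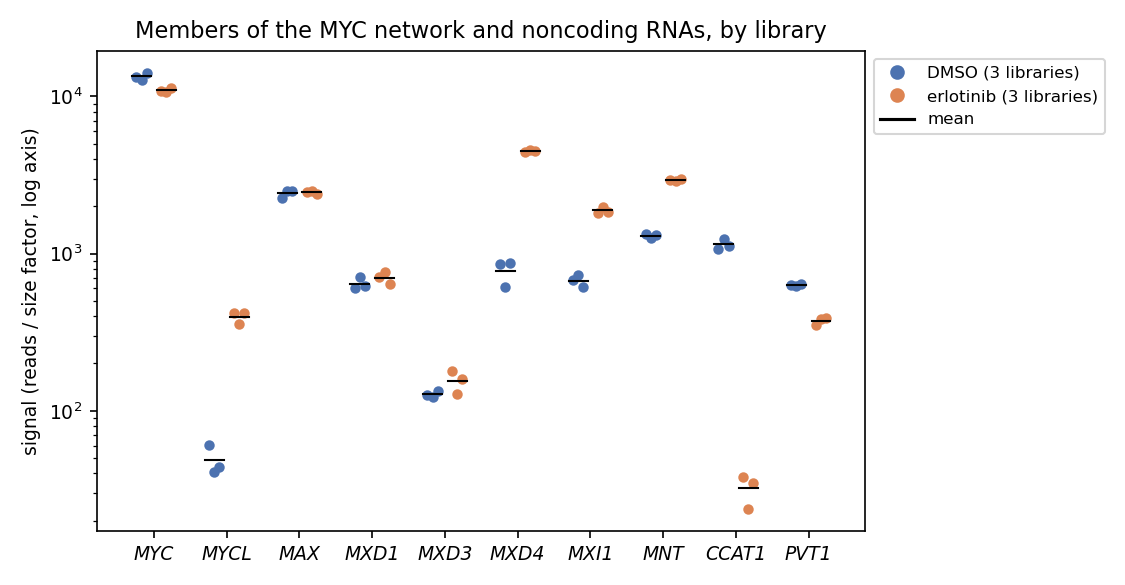
Signal (reads divided by the size factor, log axis) of the 10 members in each of the 3 DMSO and 3 erlotinib libraries, with a line at each mean. MXD4 and MYCL are higher and CCAT1 is far lower in all erlotinib libraries, while the points of MAX, MXD1 and MXD3 overlap.

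**Figure D2:**
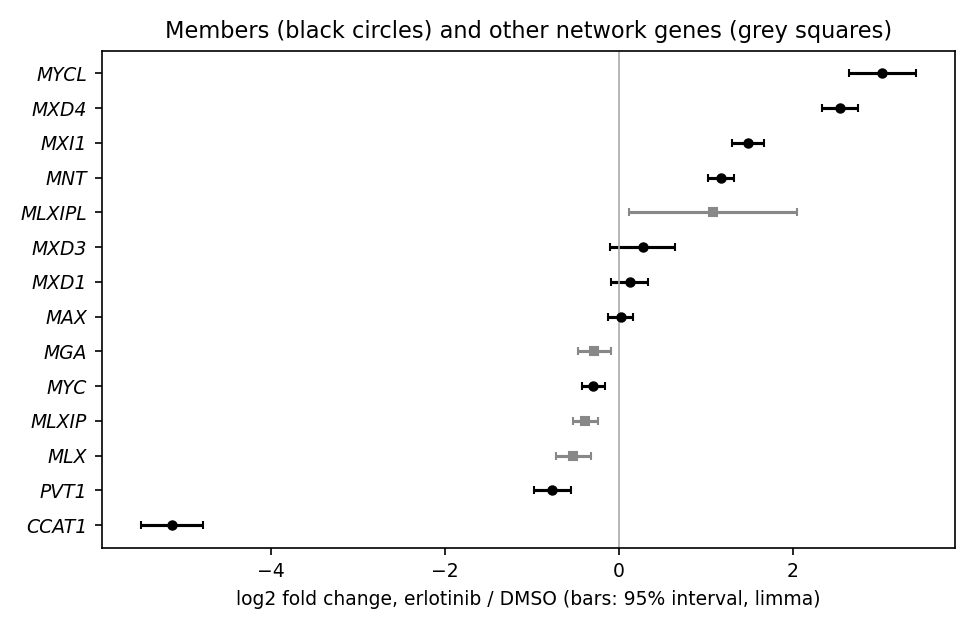
Log2 fold change of erlotinib against DMSO with its 95% interval from limma (3 libraries a group), for the members as black circles and for 4 other genes of the wider network as grey squares. CCAT1 lies at -5.14 and MYCL at 3.03, and the intervals of MAX, MXD1 and MXD3 include 0.

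To compare levels between genes, signal was divided by the length of all exons of the gene in kb. CCAT1 was not matched by name in the annotation used and is left out. In DMSO the level of MYC was 2197 ± 117 signal per kb (SD, n = 3), well above MAX with 387 ± 21.8 and MNT with 149 ± 4.90. MXI1, MXD4 and MXD1 followed with 114 ± 10.3, 113.5 ± 20.5 and 102 ± 8.65 and could not be ranked, since their libraries overlapped. MXD3 with 26.8 ± 1.30 and PVT1 with 24.9 ± 0.400 were lower still, and MYCL was lowest with 9.72 ± 2.09.

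With erlotinib MYC stayed first, with 1794 ± 43.9 signal per kb (SD, n = 3), and MXD4 moved up to the second place with 654 ± 7.79. MAX had 393 ± 9.32, MNT 338 ± 4.83 and MXI1 319 ± 15.1, and the libraries of MNT and MXI1 overlapped. MXD1 followed with 111 ± 9.54 and MYCL with 80.0 ± 7.36, ahead of MXD3 with 32.8 ± 5.55 and PVT1 with 14.7 ± 0.823. The place of PVT1 depends on the length used: its exons from 190 annotated transcripts cover 25431 bases, and with the longest transcript of 2450 bases its level was 258 and 152. With the length of the canonical transcript, an alternative chosen after seeing the data, MXD4 with erlotinib stood behind both MYC and MAX. MXD3 and MXD1 then had 119 and 116 in DMSO and 146 and 127 with erlotinib, and could not be ranked, since their libraries overlapped. MXD3 stood above MYCL, which had 113 with erlotinib.

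Summed over the 7 partners of MAX among the members, the level per kb went from 2711 ± 122 to 3329 ± 37.1 (SD, n = 3 each), or from 7.02 ± 0.488 to 8.47 ± 0.290 times that of MAX. These sums and ratios depend on the length used: with canonical transcripts the sum was 4515 and 5633 and the ratio 3.75 and 4.61. With the length of all exons, MYC made up 81.0% ± 0.761 of the sum in DMSO and 53.9% ± 0.749 with erlotinib. MXD4 went from 4.17% ± 0.622 to 19.6% ± 0.293, MXI1 from 4.22% ± 0.566 to 9.59% ± 0.505, and MNT from 5.50% ± 0.201 to 10.1% ± 0.111. The 5 antagonists together held 19.1%, 19.0% and 17.8% in the DMSO libraries and 43.7%, 44.6% and 42.8% in the erlotinib libraries. MYCL stayed a minor part, with 0.359% ± 0.0776 and 2.40% ± 0.210. Transcript shares of this kind do not depend on the size factors, but they say nothing of protein amounts.

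**Figure D3:**
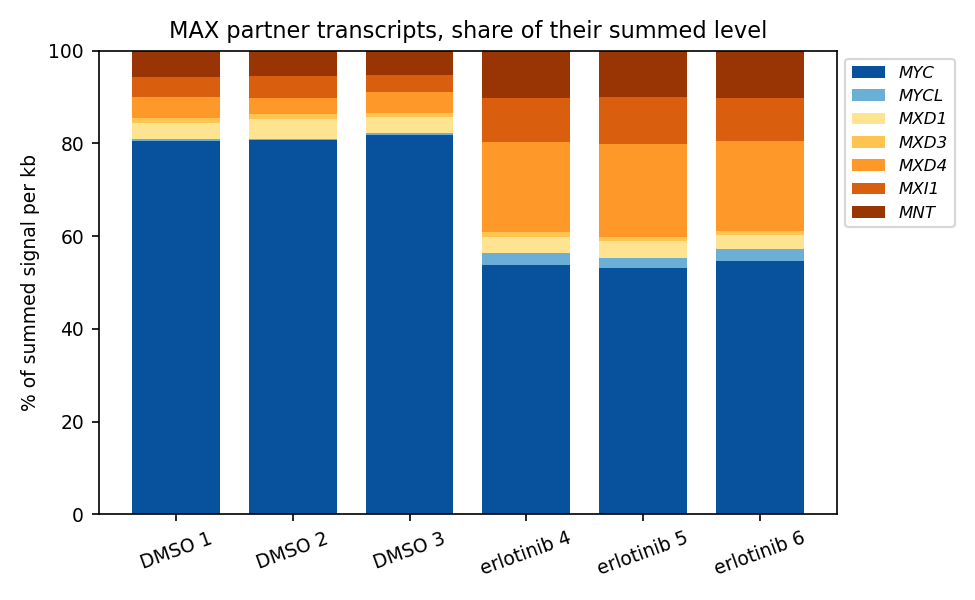
Share of each of 7 MAX partners in their summed signal per kb of exon, in percent, stacked to 100 for each of the 6 libraries. MYC takes 81.0% on average in DMSO and 53.9% with erlotinib, and MXD4 takes 4.17% and 19.6%.

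Promoter windows of RefSeq on GRCh38.p14, from 250 bases before to 50 bases after each start site, were found for 7 of the 10 members, and since this is under 80% no share over the members is given. They were searched for the E-box CACGTG, which reads the same on both strands, and for CACGCG on both strands, a weaker site of MYC and MAX. The forkhead sequence GTAAACA was searched on both strands after the windows had been read. In the windows shown, no motif overlaps another. Of all 35116 windows, 7.26% held the E-box, 11.4% CACGCG and 3.42% GTAAACA. Of the windows of tested genes, these shares were 9.18%, 16.8% and 2.59%. The E-box was present in the windows of MXD4 and MNT and in none of those of MYCL, MAX, MXD1, MXD3 and MXI1. These are shown because MXD4, MXI1 and MNT are the antagonists with higher signal, and capitals mark the motifs. The E-box of MXD4 (chr4:2262060-2262359, minus strand) begins 238 bases before the start, and that of MNT (chr17:2401011-2401310, minus strand) 193 bases before it. MXI1 has 3 windows on the plus strand. The middle one (chr10:110209981-110210280) holds GTAAACA on the reverse strand 151 bases before the start, and the last (chr10:110225746-110226045) holds GTAAACA 2 bases before and CACGCG 8 bases after it.
MXD4: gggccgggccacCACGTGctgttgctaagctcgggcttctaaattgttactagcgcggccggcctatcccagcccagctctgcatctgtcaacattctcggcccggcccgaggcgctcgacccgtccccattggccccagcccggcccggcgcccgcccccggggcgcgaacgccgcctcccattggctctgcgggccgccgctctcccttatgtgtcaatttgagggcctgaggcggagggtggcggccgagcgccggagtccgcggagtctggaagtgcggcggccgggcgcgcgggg
MNT: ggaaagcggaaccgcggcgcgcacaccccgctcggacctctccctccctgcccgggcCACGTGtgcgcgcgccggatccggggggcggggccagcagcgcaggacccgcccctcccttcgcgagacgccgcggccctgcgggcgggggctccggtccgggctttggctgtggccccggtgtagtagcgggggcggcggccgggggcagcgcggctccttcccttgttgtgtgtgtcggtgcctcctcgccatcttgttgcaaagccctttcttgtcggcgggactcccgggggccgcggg
MXI1, middle window: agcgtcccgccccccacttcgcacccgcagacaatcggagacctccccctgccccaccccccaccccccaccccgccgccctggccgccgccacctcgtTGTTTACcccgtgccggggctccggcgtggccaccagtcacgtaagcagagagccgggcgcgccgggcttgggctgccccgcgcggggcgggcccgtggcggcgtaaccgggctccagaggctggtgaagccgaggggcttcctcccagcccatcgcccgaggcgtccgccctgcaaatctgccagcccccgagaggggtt
MXI1, last window: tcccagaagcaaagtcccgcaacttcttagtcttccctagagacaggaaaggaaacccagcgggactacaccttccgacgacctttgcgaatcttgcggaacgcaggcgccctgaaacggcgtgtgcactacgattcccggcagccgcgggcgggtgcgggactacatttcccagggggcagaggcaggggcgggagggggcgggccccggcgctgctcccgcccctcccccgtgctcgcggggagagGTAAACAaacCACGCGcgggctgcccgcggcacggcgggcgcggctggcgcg
CACGCG was also present in the window of MXD3, beginning 8 bases after the start on the reverse strand, and the windows of MYCL, MAX and MXD1 held none of these motifs. A match gives the letters only and does not show that a protein binds there.

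The wider network of MAX and its relative MLX was read from 5 further genes. MLX, the partner of the glucose-sensing factors MondoA and ChREBP, fell from a mean signal of 1128 to 786, a log2 fold change of -0.52 (adjusted p = 7.0e-05, limma with Benjamini-Hochberg adjustment). MLXIP, which encodes MondoA, fell by 0.38 on the log2 scale (adjusted p = 4.7e-05, limma), and MGA, a large MAX partner, fell by 0.28 (adjusted p = 0.011, limma), although its libraries overlapped and the call was lost without erlotinib library 4 or 5 and with scaling to the total count. MLXIPL, which encodes ChREBP, rose by 1.09 from a mean signal of only 12.3 to 28.7 (adjusted p = 0.042, limma), and this call was lost without DMSO library 1 or erlotinib library 4 or 5, and with DESeq2, a pseudocount of 0.1 or no filter. MYCN was the fifth. Of 6 target genes of MondoA and ChREBP, 4 could be tested. TXNIP rose by 1.59 on the log2 scale (adjusted p = 7.0e-14, limma), FASN fell by 1.60 (adjusted p = 3.1e-13) and PFKFB3 fell by 0.19 (adjusted p = 0.011), while ARRDC4 had 302 and 365 and did not pass the test. PFKFB3 lost its call without erlotinib library 4 or 6 and with scaling to the total count. ARRDC4 was higher and past the threshold without DMSO library 1 or 2, with edgeR, with TMM factors in limma and with scaling to the total count.

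Of 12 corepressor genes that the MXD proteins and MNT use, 5 fell, 2 rose and 5 did not pass the test. That is 41.7% lower and 16.7% higher, beside 35.4% and 35.3% of all genes tested, and the median log2 fold change was -0.05. Of the SIN3 scaffolds, SIN3B rose by 0.71 (adjusted p = 8.1e-08, limma), and SIN3A, with 1795 and 1763, did not pass the test. SAP30 and RBBP7, subunits of the SIN3 complex, fell by 0.92 and 0.69 (adjusted p = 3.3e-05 and 2.2e-08, limma). Scaled to the total count, 5 of the 12 were higher and 4 lower, and the median turned to 0.13.

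Coactivators and partners of MYC were lower more often than higher. Of 15 genes, 11 fell and 1 rose, with a median log2 fold change of -0.42, beside 35.4% lower and 35.3% higher among all genes tested. The shares of all genes were not matched for level of expression, here or for the other lists. Among genes with at least 10 reads in every library, 4925 were lower and 4354 higher. Scaled to the total count, 8 were lower and 2 higher, and the median was -0.24. RUVBL1 fell by 1.20 and RUVBL2 fell by 0.93, the ATPases shared by chromatin remodelling and acetyltransferase complexes (adjusted p = 5.7e-12 and 4.5e-06, limma). ACTL6A, an actin-related subunit of such complexes, fell by 0.94, and WDR5, which helps MYC hold to chromatin, fell by 0.86 (adjusted p = 1.0e-09 and 9.3e-10, limma). The gene that rose was ZBTB17, which encodes the MYC-binding repressor partner MIZ1 and had a mean signal of 358 and 460 (adjusted p = 0.0082, limma). It is named here because it was the single exception, after its value was seen.

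Regulators of MYC protein turnover gave 10 genes that fell and 1 that rose among 14, or 71.4% lower and 7.14% higher beside 35.4% and 35.3% of all genes tested, with a median of -0.43. Scaled to the total count, 8 were lower and 2 higher, and the median was -0.25. CIP2A, an inhibitor of the phosphatase that destabilises MYC, fell by 2.78 on the log2 scale, from a mean signal of 1238 to 180 (adjusted p = 2.5e-15, limma). The mitotic kinases AURKA and PLK1 each fell by 2.60 (adjusted p = 9.9e-17 and 7.0e-16, limma), and SKP2, a ubiquitin ligase subunit, fell by 1.37 (adjusted p = 6.7e-12). The exception, named after its value was seen, was PPP2R5A, a regulatory subunit of that phosphatase, which rose by 0.74 (adjusted p = 8.4e-09, limma). The list holds genes of opposite effect on MYC protein, such as CIP2A and PPP2R5A, so its counts give no direction for MYC stability.

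Of 9 proteins known to bind MYC messenger RNA, 8 could be tested, and 6 fell and 1 rose with a median of -0.56. These are 75% and 12.5%, beside 35.4% lower and 35.3% higher among all genes tested. HNRNPD, which promotes decay of AU-rich messages, fell by 0.96, and ELAVL1, which stabilises such messages, fell by 0.84 (adjusted p = 1.4e-09 and 2.5e-10, limma). YBX1 and HNRNPK fell by 0.82 and 0.60 (adjusted p = 3.4e-08 and 8.2e-08, limma). IGF2BP3 was the gene that rose, from 3403 to 4013 (adjusted p = 0.0043, limma), and it is named as the exception after its value was seen.

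Textbook targets activated by MYC were mostly lower. The list was written with earlier results of these data known and is not independent evidence of its direction. Of 40 genes 38 could be tested, of which 35 fell, 26 of them by at least 1 log2 unit, beside 35.4% of all genes tested that were lower and 10.8% that were lower by at least 1 log2 unit. The median log2 fold change of the list was -1.35, against -0.29 for MYC itself. TERT, the telomerase catalytic subunit, fell most, from 176, 128 and 121 in DMSO to 16.6, 11.9 and 19.7 with erlotinib, a log2 fold change of -3.07 (adjusted p = 7.7e-09, limma). CDC25A, a phosphatase that drives entry into S phase, fell by 3.03, and TFRC, the transferrin receptor, fell by 2.53 (adjusted p = 5.5e-16 and 2.8e-17, limma). NME1, a nucleoside diphosphate kinase, fell by 2.40 (adjusted p = 7.7e-16, limma).

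Only DNPH1 and APEX1 of these targets rose, by 1.03 and 0.17 (adjusted p = 1.3e-07 and 0.020, limma), APEX1 losing its call without erlotinib library 4 or 5, and POLR3D, with 954 and 1022, did not pass the test. CCND2 was near 4 in both groups and EIF4A1 was listed at 0 in all libraries, and since every cell uses this gene nothing is read from that value. Promoter windows were found for 33 of the 40 genes. Of their 40 windows 17 held the E-box CACGTG, or 42.5% against 7.26% of all windows and 9.18% of those of tested genes. Of the tested targets, the 17 with an E-box in a window were lower in 88.2% and had a median of -1.12. The 15 with windows and no E-box were lower in 100% and had a median of -1.47. Among other tested genes with windows, 39.9% of the 1346 with an E-box and 36.0% of the 9752 without were lower. Their medians were -0.06 and 0.01. No difference between these groups was tested.

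Of 14 textbook targets repressed by MYC, 10 could be tested, and 6 rose, none fell and 4 did not pass the test. That is 60% higher and 0% lower, beside 35.3% and 35.4% of all genes tested, with a median log2 fold change of 0.52. This list too was written with earlier results of these data known. GADD45G, a growth arrest gene, rose by 2.67 from a mean signal of 6.80 to 45.7 (adjusted p = 4.7e-05, limma). CEBPA, a differentiation factor, rose by 2.06, and CLU, a secreted chaperone, by 1.78 (adjusted p = 1.2e-06 and 8.7e-09, limma). FTH1, the ferritin heavy chain, rose by 0.99 to 41919 (adjusted p = 9.1e-11, limma). CDKN1A, the best known of these targets, had 484 and 482 and a log2 fold change of -0.01.

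**Figure D4:**
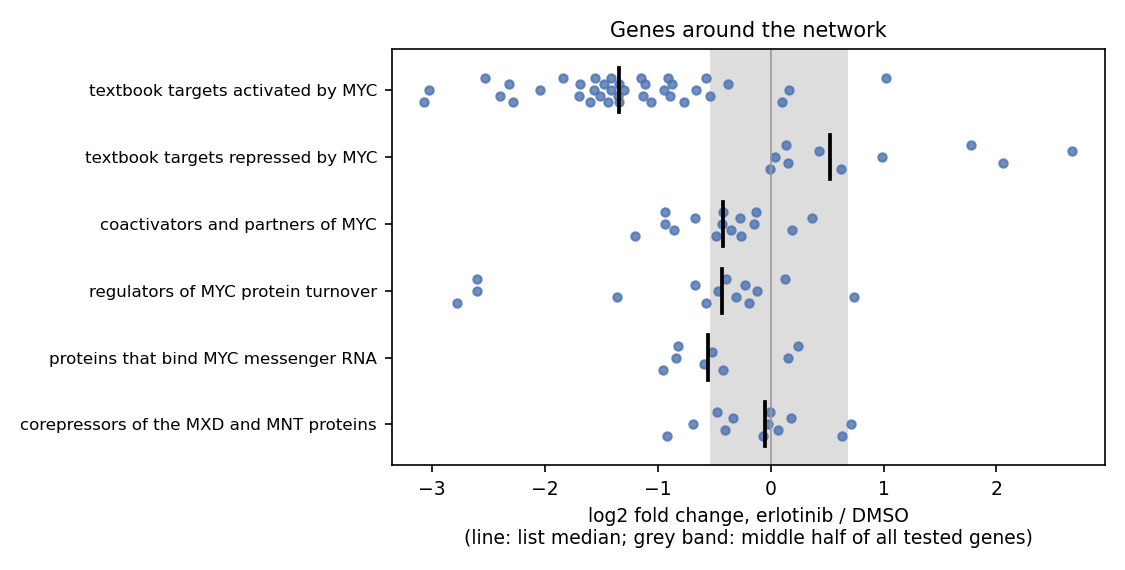
Log2 fold change of erlotinib against DMSO for each tested gene of 6 lists, with the list median as a line and the middle 50% of all 14215 genes tested as a grey band (-0.53 to 0.68). The median of the activated targets lies at -1.35, left of the band, and that of the repressed targets at 0.52 lies inside it.

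Around MYC on chromosome 8, the noncoding RNAs did not move as 1 block. Of 13 other named RNA genes of the region, 5 could be tested. PRNCR1 fell from 840 to 496 and CASC8 from 678 to 443, log2 fold changes of -0.76 and -0.61 (adjusted p = 6.3e-07 and 4.9e-05, limma). CASC11, the nearest gene to MYC at 1467 bases before it, was at 4.54, 14.9 and 6.42 in DMSO and 29.5, 26.7 and 43.1 with erlotinib. POU5F1B, a retrogene that is counted with this list, was at 12.5, 1.86 and 6.42 in DMSO and 48.0, 29.7 and 26.2 with erlotinib. Both rose, by 1.95 and 2.39 on the log2 scale (adjusted p = 0.0017 and 0.00088, limma), but from few reads, and POU5F1B is close in sequence to POU5F1, so its reads are uncertain. PCAT1 did not pass the test, with 23.8, 20.4 and 26.8 in DMSO and 3.69, 7.92 and 36.5 with erlotinib. Erlotinib library 6 stood apart from the other 2, and without it PCAT1 was lower and past the threshold, with a log2 fold change of -1.92 (adjusted p = 0.0075, limma).

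The genes next to CCAT1 gave almost no signal. CASC19, 9755 bases away, had a mean of 5.31 in DMSO and 1.86 with erlotinib, and CASC21, 25369 bases away, had 0.688 and 2.49. CCAT2 had 3.59 and 9.08. All 3 were below the filter and were not tested.

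Within 5 Mb of the start of MYC there were 74 genes other than the members, of which 36 could be tested. In this window 18 fell, 7 rose and 11 did not pass the test, with a median log2 fold change of -0.48. The shares were 50% lower and 19.4% higher, beside 35.4% and 35.3% of all genes tested, whose median was 0.02, and scaling to the total count gave a median of -0.31. The largest fall was that of ATAD2, a bromodomain protein that works with MYC and E2F, with -2.59 (adjusted p = 1.1e-14, limma). TBC1D31 and SQLE followed with -1.74 each (adjusted p = 3.9e-07 and 2.7e-13, limma). The largest rises were those of POU5F1B and CASC11. Within 2 Mb only 8 of 23 genes could be tested, of which 2 fell and 3 rose, 25% and 37.5%, with a median of -0.09. CCAT1, with -5.14, lay below every tested gene of the 5 Mb window, the next lowest being ATAD2.

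**Figure D5:**
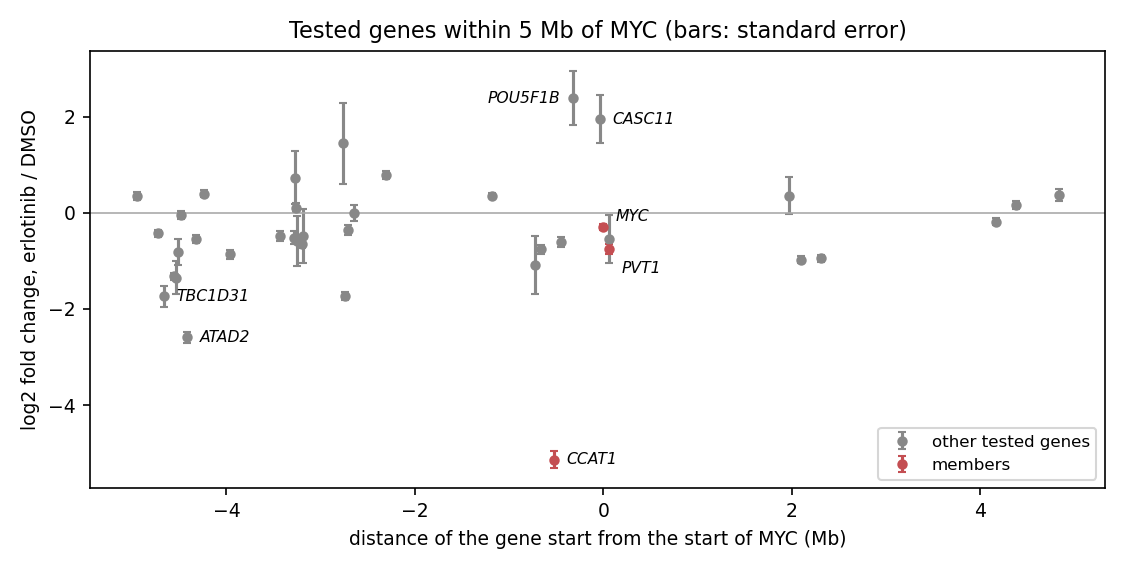
Log2 fold change of erlotinib against DMSO, with its standard error, for the tested genes within 5 Mb of MYC, against the distance of their starts from that of MYC in Mb. CCAT1 lies at -5.14, far below its neighbours, and CASC11 and POU5F1B lie above 0 beside it.

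Neighbours of the other members moved in both directions. ZFYVE28, 7488 bases from MXD4, was higher with a log2 fold change of 1.89, and HAUS3, a spindle component gene 5311 bases from MXD4 on the other side, was lower with -1.31. SGSM2, 3019 bases from MNT, had 1.01, and SMNDC1, a splicing factor gene 3365 bases from MXI1, had -0.78. TRIT1 and MFSD2A, on the 2 sides of MYCL, had -0.64 and -3.04, against the 3.03 of MYCL. Members that were themselves neither also had changed neighbours. RAB15, 33765 bases from MAX, had 2.30. SNRNP27 and PCBP1-AS1, on the 2 sides of MXD1, had -0.53 and 1.62, and RAB24 and LMAN2, on those of MXD3, had 0.89 and -0.34. All of these genes passed the threshold in limma.

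The genes whose profile over the 6 libraries was closest to that of CCAT1 were STC1, FGFBP1 and DUSP6, with root mean square differences of 0.362, 0.390 and 0.436 log2 units. STC1 encodes a secreted glycoprotein, FGFBP1 a carrier of fibroblast growth factors, and DUSP6 a phosphatase of ERK that is itself induced by ERK signalling. DUSP6 went from a mean signal of 1391 ± 25.3 to 68.2 ± 5.35 (SD, n = 3 each), and CCAT1 from 1143 to 32.1. The closest to MYC were TRIM65, DHX34 and RNF115, with differences of 0.0193, 0.0254 and 0.0255 log2 units, each a gene with a log2 fold change between -0.29 and -0.25. This likeness is computed over the same libraries that chose CCAT1 and is a description only.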

How the data were processed

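RNA-seq of HCC827 cells, 3 libraries with DMSO and 3 with 1 μM erlotinib for 24 h, was taken from a table the authors deposited. Per the submitters' processing notes and methods, reads were mapped to GRCh38 with Bowtie2 2.3.4, which does not split reads across introns, uniquely mapped reads were counted per gene with featureCounts 1.6.3, and DESeq2 1.18.1 was used. The deposited values are signal, reads divided by 1 size factor per library (0.882 to 1.08). This division and the strand counted are not given in the sources used here. Dividing by the step of each library gave whole reads for 100% of values (tolerance 0.001). Among genes with 1 to 20 reads, 58.1% to 61.1% of values were even, so reads may not be independent fragments. No per-sample column was left out (0 unused).

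Differences were fitted with limma 3.58.1 on log2(signal + 1), letting the variance follow the mean, over 14215 genes averaging 10 or more, two-sided, with Benjamini-Hochberg adjustment over all of them at 0.05. A log2 fold change on this scale understates the change of low genes. The members and lists were chosen with earlier results of these data known. All members were named, and from each list at most 4 genes with the largest absolute log2 fold change among those past the threshold without overlap of the groups (lists of 5 or fewer whole), besides neighbours and the 3 genes most alike to CCAT1 and to MYC. Others were named once their values had been seen: ARRDC4, SIN3A, POLR3D, DNPH1, APEX1, CCND2, EIF4A1, CDKN1A, PCAT1, CCAT2, ZBTB17, PPP2R5A, IGF2BP3 and SQLE. So were EPCAM, KRT7, SFTPB, CD3E and DCN, as cell type markers. Exon lengths came from GENCODE release 44, in place of RefSeq lengths as first planned, and positions and promoter windows from RefSeq. Alternatives were DESeq2 1.42.0 and edgeR 4.0.16 (TMM factors) on the recovered reads, TMM factors in limma, scaling to the total count, pseudocounts of 0.1 and 10, no filter, at least 10 reads in every library, each library left out, and other transcript lengths. 1 gene that the naming rule picks is not reported here. The fit was tested on simulated data. R 4.3.3, Python 3.11.15 and matplotlib 3.10.9 were used.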

Additional observations from a re-analysis of the deposited data

How the results depend on the processing

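Scaling to the total count changed most. Over all genes tested, the median log2 fold change became 0.19 (0.02 as reported), and 3955 were lower and 6156 higher, against 5031 and 5012. Members higher with erlotinib then numbered 7 in place of 4, corepressors 5 in place of 2, and coactivators, turnover regulators, messenger RNA binders and MondoA and ChREBP targets 2 each in place of 1, while 1 in place of 2 targets of MondoA and ChREBP was lower. Turnover regulators higher were also 2 with TMM factors in limma, and MondoA and ChREBP targets higher 2 with that setting and with edgeR. MLXIPL lost its call, leaving 0 other network genes higher, with DESeq2, a pseudocount of 0.1 and no filter. Requiring 10 reads in each library left MLXIPL, CASC11 and POU5F1B untested, so 0 other network genes and 0 named noncoding RNAs were higher. Named noncoding RNAs lower numbered 3 in place of 2 with DESeq2 and with no filter (TMEM75) and without erlotinib 6 (PCAT1). Scaled to the total count, the median was -0.15 for the other network genes (-0.33 as reported) and 0.22 for MondoA and ChREBP targets (0.04 as reported). With DESeq2 that of the repressed targets was 0.80 (0.52 as reported). DESeq2 was also fitted to genes below the filter, such as CDKN1C, so these 2 medians may rest on different genes. The cause of the other changes was not tested. Within 2 Mb of MYC, 2 genes were lower and 3 higher, against 18 and 7 within 5 Mb, and the balance of lower and higher turned.

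With each library left out in turn, genes lower ranged from 4702 to 5096 and genes higher from 4585 to 5094. Other network genes higher ranged from 0 (without DMSO 1, erlotinib 4 or 5) to 1, messenger RNA binders higher from 1 to 2 (without DMSO 3), activated targets higher from 1 (without erlotinib 4 or 5) to 2, and MondoA and ChREBP targets from 1 to 2 both lower (1 without erlotinib 4 or 6) and higher (2 without DMSO 1 or 2). CCAT1, PVT1, MYCL, MXD4, MXI1 and MNT kept their call in all 14 alternatives, and MYC, MAX, MXD1 and MXD3 in 13. No paired analysis was possible because the erlotinib columns carry the numbers 4 to 6 and not those of the labels. Few reads limit CASC11, POU5F1B, MLXIPL and CCAT1 with erlotinib.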
